A study of Mus musculus with 6 samples.

Results

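The 33 interferon-stimulated genes described here are genes that cells switch on when an interferon binds its receptor. They were chosen by gene symbol under a rule that takes no measured value, although earlier results of these data were known when the set was put together, and all 33 were found among the 33573 genes of the deposited table. RNA-seq was done on 3 tumors and 3 colon tissue samples of C57BL/6 mice, numbered 2, 4 and 20 in both tissues. All 6 samples come from animals with colitis-associated colorectal cancer, since both tissues were taken from mice given the carcinogen azoxymethane (AOM) and dextran sulfate sodium (DSS), an agent that injures the colon lining. The colon samples are therefore exposed to the same agents as the tumors and are not untreated tissue. The study's methods name male mice and an age range at the AOM injection, while neither they nor the labels give an age for each sample. Whether each number stands for its own mouse is not labelled, and the p-values cover only the variation among these 6 samples.

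Type I interferons signal through Ifnar1 and Ifnar2 to a complex with Stat2 and Irf9 that binds the interferon-stimulated response element (ISRE) in the promoters of their target genes. Interferon gamma signals through Ifngr1 and Ifngr2 and acts on the gamma-activated site (GAS). The targets encode proteins that block viral replication, sense foreign nucleic acid, or attack the vacuoles of intracellular microbes. In the intestine a low level of this program is maintained by the microbiota, and it is known for its roles in epithelial defence and repair.

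Total counts were between 16995481 and 20789620 fragments per library. Of all genes, 18520 passed the filter on low counts and were tested, the 33 members among them. Between tumor and colon 2981 genes rose (16.1% of those tested) and 2987 fell (16.1%) at an adjusted p below 0.05 in edgeR's quasi-likelihood test, and limma on log2(FPKM + 1) gave 3860 higher and 2350 lower. The labels call the samples tumor cells and normal colon cells, but the tissue was bulk. The 12 epithelial genes summed to between 10187 and 12050 CPM (counts scaled to a common library total) in every library, and smooth muscle and leukocyte genes were detected in all 6. The make-up of the tissues differed: the 7 smooth muscle genes summed to between 8659 and 8912 CPM in colon and between 490 and 1030 in tumor, and all 7 fell, with a median log2 value of -3.81. In bulk tissue fewer cells of a type and less RNA per cell cannot be told apart.

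The sequences just upstream of the members show the elements through which interferons are known to act. RefSeq promoter windows of the GRCm38.p6 build, from 250 bases before to 50 bases after the gene start, were matched by symbol for 26 of the 33 members. Some genes had more than 1 window, with 31 windows for the 26 members, and a gene was counted if any of its windows held the core. Those of Dhx58, Oas2, Zbp1, Ifi27, Usp18, Mx1 and Mx2 were not matched. Both strands were searched for an ISRE core, GAAANNGAAA, and for a GAS core, TTCNNNGAA, where N is any base. The ISRE core was present in 17 of the 26 members (65.4%) and in 3.99% of the 27025 genes with a window. The GAS core was present in 10 of the 26 (38.5%) and in 9.55% of all genes. The 6 windows that follow are each written 5′ to 3′ on the strand of its gene with the matches in capitals. They show a run of ISRE cores (Isg15), ISRE with GAS (Oas1a, Igtp), the windows of Ifih1 and Irf8, which fell in tumor, and GAS alone (Irf1, Irf8).

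Isg15, ISRE (chr4:156200769-156201068, minus strand): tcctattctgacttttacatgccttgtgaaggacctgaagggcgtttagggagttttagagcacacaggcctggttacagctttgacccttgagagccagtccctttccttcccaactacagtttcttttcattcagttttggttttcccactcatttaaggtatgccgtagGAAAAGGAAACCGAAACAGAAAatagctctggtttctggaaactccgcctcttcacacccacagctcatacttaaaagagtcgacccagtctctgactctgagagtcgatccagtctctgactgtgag
Oas1a, GAS then ISRE (chr5:120907476-120907775, minus strand): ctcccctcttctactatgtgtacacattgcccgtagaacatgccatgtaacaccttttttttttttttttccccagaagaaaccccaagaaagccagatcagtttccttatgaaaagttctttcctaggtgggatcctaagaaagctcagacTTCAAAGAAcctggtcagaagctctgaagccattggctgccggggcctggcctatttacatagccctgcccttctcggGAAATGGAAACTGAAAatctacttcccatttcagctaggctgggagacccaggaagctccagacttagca
Igtp, GAS then ISRE (chr11:58199306-58199605, plus strand): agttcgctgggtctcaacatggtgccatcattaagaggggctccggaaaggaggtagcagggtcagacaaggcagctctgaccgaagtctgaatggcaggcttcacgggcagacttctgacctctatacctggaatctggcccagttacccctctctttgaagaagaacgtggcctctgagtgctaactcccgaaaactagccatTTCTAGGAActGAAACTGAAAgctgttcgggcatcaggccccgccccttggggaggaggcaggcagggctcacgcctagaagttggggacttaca
Ifih1, ISRE (chr2:62646206-62646505, minus strand): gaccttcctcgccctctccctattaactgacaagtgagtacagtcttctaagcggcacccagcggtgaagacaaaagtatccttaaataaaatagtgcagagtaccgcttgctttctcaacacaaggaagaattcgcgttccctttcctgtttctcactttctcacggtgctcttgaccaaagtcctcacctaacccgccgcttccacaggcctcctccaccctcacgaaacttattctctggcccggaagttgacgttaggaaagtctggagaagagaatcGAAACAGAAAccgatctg
Irf8, GAS (chr8:120736108-120736407, plus strand): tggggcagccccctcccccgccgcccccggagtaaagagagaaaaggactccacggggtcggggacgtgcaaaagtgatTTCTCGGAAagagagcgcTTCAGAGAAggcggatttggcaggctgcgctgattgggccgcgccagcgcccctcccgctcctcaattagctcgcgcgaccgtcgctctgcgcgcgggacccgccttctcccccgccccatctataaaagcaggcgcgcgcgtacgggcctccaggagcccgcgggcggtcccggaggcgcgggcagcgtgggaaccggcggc
Irf1, GAS (chr11:53769764-53770063, plus strand): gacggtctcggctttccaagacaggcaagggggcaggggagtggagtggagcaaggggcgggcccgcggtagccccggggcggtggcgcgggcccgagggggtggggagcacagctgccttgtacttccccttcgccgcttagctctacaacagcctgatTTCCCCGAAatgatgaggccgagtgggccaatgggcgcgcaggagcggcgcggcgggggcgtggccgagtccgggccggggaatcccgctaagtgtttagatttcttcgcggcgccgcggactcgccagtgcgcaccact

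In Isg15 3 ISRE cores that share bases began 78, 72 and 66 bases before the start, and in Oas1a 2 began 20 and 14 bases before it. In Ifih1 the only match began at base 33 after the start. The window of Irf8 shown held 2 GAS cores and no ISRE core. Irf8 and Irf1 each had another window, not shown, that held neither core. Of the 26 members, 11 had an ISRE core alone, 4 a GAS core alone (Ifi35, Ifit2, Irf1 and Irf8), 6 had both (Bst2, Gbp5, Gbp7, Igtp, Irgm2 and Oas1a), and 5 had neither (Ifi44, Irf7, Irf9, Oasl1 and Oasl2). The median log2 fold change, tumor over colon, was -0.63 over members with an ISRE core and -0.69 over those without. A match is a description of letters, and no binding was measured.

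**Figure D1:**
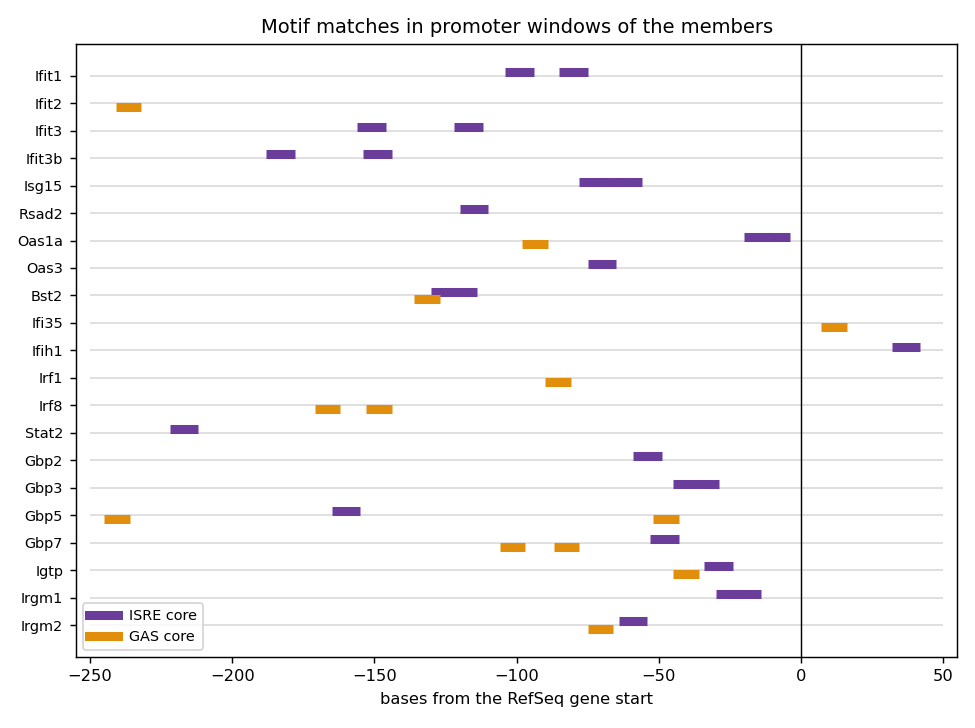
Position of each ISRE core (purple) and GAS core (orange) in the promoter windows that held at least 1 match, in bases from the RefSeq gene start. The 17 genes with an ISRE core include Isg15, with 3 cores that share bases, and Irf8 is among the 4 with a GAS core alone.

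Of the 33 members 0 rose in tumor and 3 fell, namely Ifi27, Ifih1 and Irf8. At an unadjusted p below 0.05 the same test gave 10 members lower (30.3%, beside 21.7% of all genes) and 0 higher (beside 22.1%), and DESeq2 and limma-voom also called 0 higher. The fold change was negative for 29 members and positive for Usp18, Ifit2, Ifit3b and Irf9, with a median log2 value of -0.66 against 0.01 over all genes tested. The 3 that fell are 9.09% of the members, beside 16.1% of all genes. In 5 members (15.2%) every tumor library lay below every colon library, beside 24.2% of all genes, and in 0 members every tumor library lay above, beside 25.3%. Neither share of the members thus exceeded its background. The smooth muscle and mature colonocyte genes were lower in tumor as well, and their part in the members' values was not tested. Without colon 2 the count was 12 (36.4%, beside 14.1% of genes tested in that fit). Without tumor 4 it was 7, without tumor 2 it was 2, and without colon 4, colon 20 or tumor 20 it was 1. Of the 18520 genes of the main test, 2844 fell without tumor 4 and 2272 without tumor 2. Without colon 4, colon 20 or tumor 20 these numbers were 1861, 2079 and 1956, beside 2987 with all libraries.

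**Figure D2:**
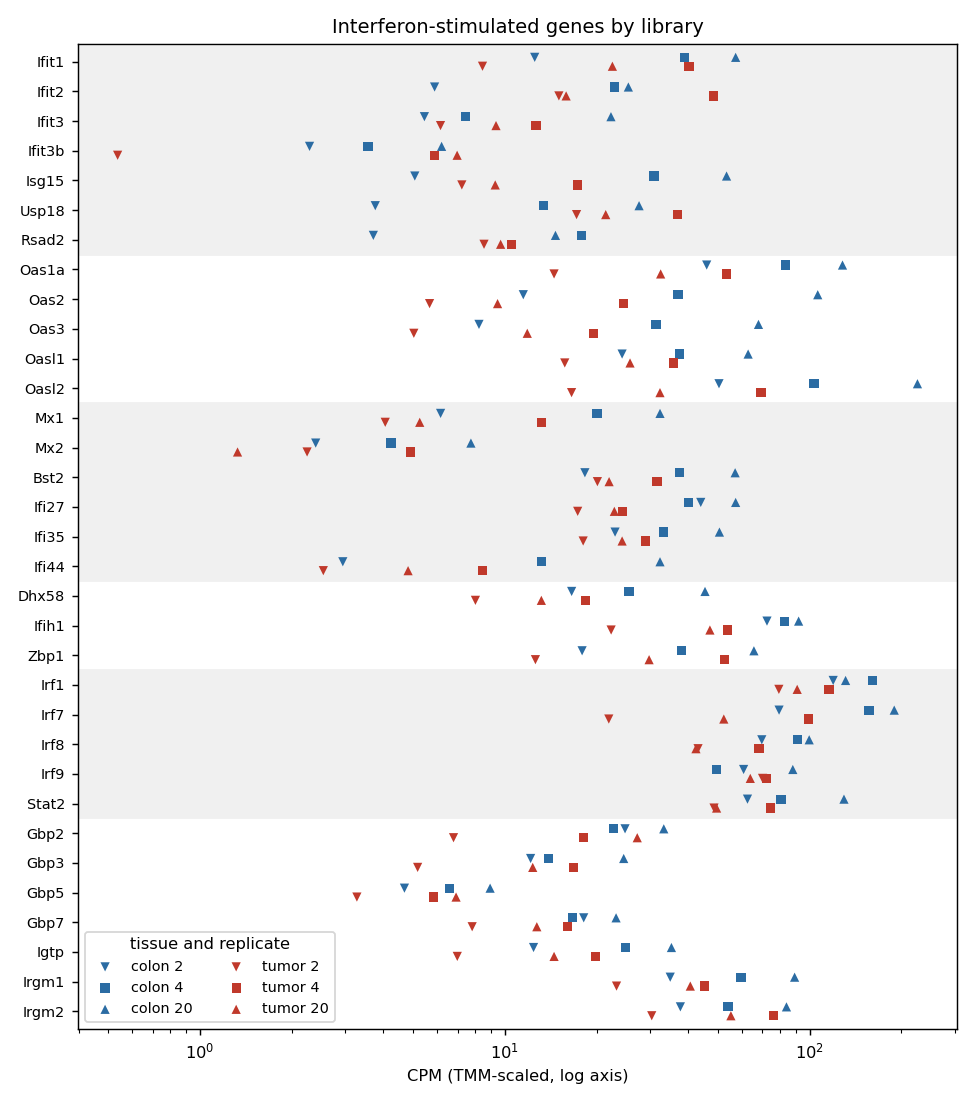
CPM on a log axis for each of the 33 members in 6 libraries, with colon in blue and tumor in red, the marker shape giving the replicate number, and shaded bands separating the role groups. Ifi27, Ifih1, Irf8, Irf1 and Gbp7 are the 5 genes whose red points all lie left of the blue ones, while Isg15 and Ifi44 spread widely within colon.

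Equal numbers were taken as pairs, because the design text describes the tissues as paired. The labels do not say that equal numbers are from the same mouse. Correlations of deviations from group means within equal numbers were low, at 0.19, 0.12 and 0.02 for numbers 2, 4 and 20. With the replicate number as a block, 10 members fell (30.3%, beside 15.3% of all genes) and 0 rose, beside 14.7% of all genes. The 10 were Ifi27, Ifih1, Irf8, Irf1, Irf7, Dhx58, Oas1a, Oasl2, Igtp and Irgm1, with adjusted p from 0.0106 for Ifi27 to 0.0493 for Igtp. Tumor was lower than the colon sample of the same number in all 3 pairs for 20 of 33 members (60.6%), beside 31.6% of all genes. It was higher in all 3 for 0, beside 32.7%. The size of the difference varied between pairs. The median log2 ratio over members was -0.59 in pair 2, -0.33 in pair 4 and -1.25 in pair 20, and 26, 23 and 32 of the 33 members were lower in tumor in these pairs. Over all genes these medians were 0.00, 0.00 and 0.01.

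**Figure D3:**
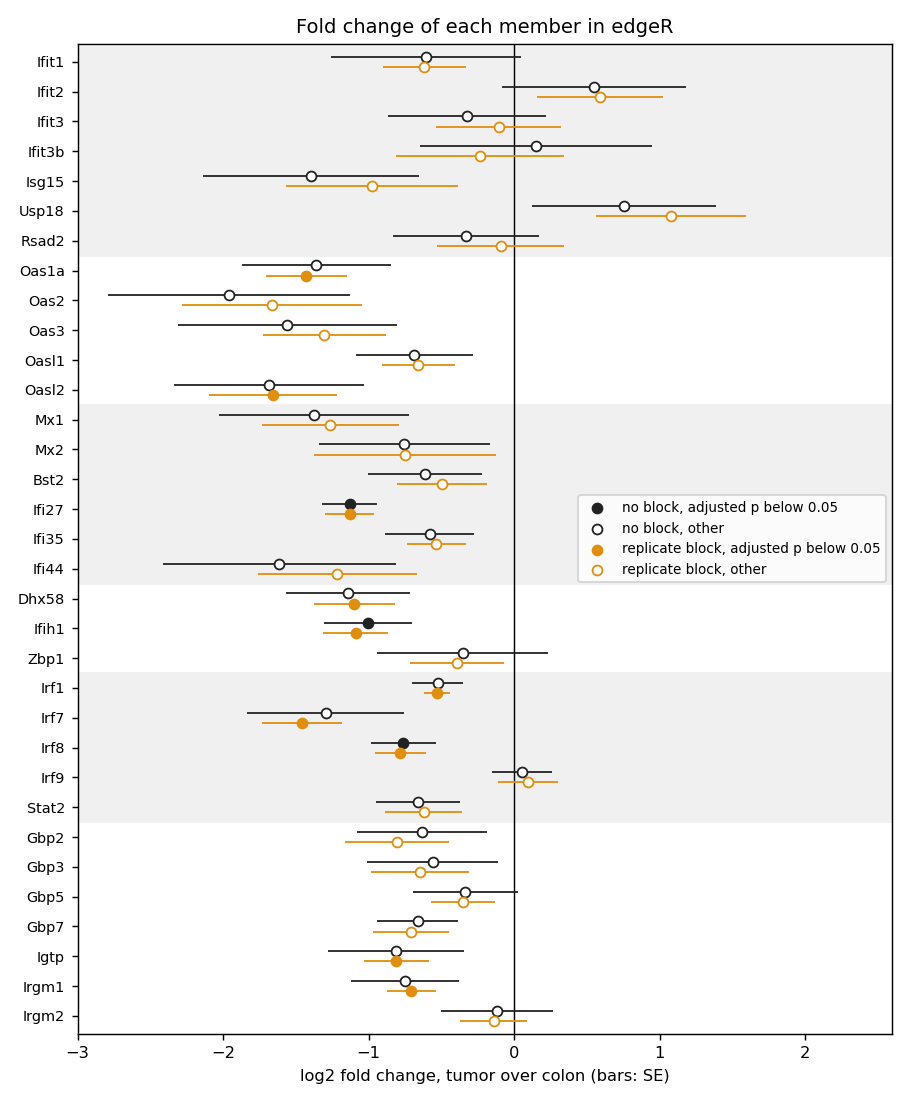
log2 fold change, tumor over colon, with its SE for each member in edgeR without a block (black) and with the replicate block (orange). Filled points have an adjusted p below 0.05, 3 without and 10 with the block, and all of them lie below 0.

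Ifi27, a small membrane protein induced by type I interferons (chr12:103400470-103406498, GRCm39), had the smallest adjusted p of all members. Its CPM was 43.9, 40.2 and 57.2 in colon 2, 4 and 20 and 17.3, 24.3 and 22.9 in tumor 2, 4 and 20. The groups did not overlap, and each tumor was below the colon sample of the same number. The log2 fold change was -1.13 ± 0.19 (SE, n = 3 per tissue; edgeR adjusted p = 0.00517), a level 2.19-fold higher in colon. Ifi27 was called lower under all 17 alternatives, with adjusted p up to 0.0207.

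Among the nucleic acid sensors, Ifih1 (chr2:62426142-62476599) fell. It encodes MDA5, which detects long double-stranded RNA. Its CPM was 72.4, 82.6 and 92.0 in colon and 22.3, 53.7 and 47.1 in tumor, with no overlap, and tumor 2 was the lowest. The log2 fold change was -1.0 ± 0.30 (edgeR adjusted p = 0.0408, from 0.00465 to 0.108 over the alternatives), and the call was lost in 6 of the 17, among them those without colon 2, colon 4, colon 20 or tumor 20. Dhx58 encodes LGP2, a partner of MDA5 that shares its helicase but has no signalling domain of its own. It had CPM of 16.6, 25.5 and 45.4 in colon and 8.01, 18.4 and 13.2 in tumor. Tumor 4 overlapped the colon range, and the difference passed with the block (log2 -1.10 ± 0.28, adjusted p = 0.0403, from 0.0194 to 0.243 over the alternatives) but not without it (-1.14 ± 0.43, adjusted p = 0.0798). The antisense gene Dhx58os overlaps Dhx58 by 2637 bases, with 342 counts beside 2350, and reads of the pair could be mixed. Zbp1, a sensor of Z-form nucleic acid that can start necroptosis, lay between 17.9 and 65.6 CPM in colon and between 12.6 and 52.6 in tumor, with a log2 value of -0.35 ± 0.59 (adjusted p = 0.679).

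The transcription factors varied least between libraries of a tissue of the 6 role groups, with a median ratio of highest to lowest of 1.77 in colon and 1.53 in tumor. Irf8 (chr8:121463097-121483433), which directs the development of monocytes and dendritic cells, had CPM of 69.7, 91.4 and 99.6 in colon and 43.0, 68.2 and 42.4 in tumor. The groups did not overlap, although tumor 4 came close to colon 2. Irf8 fell, with a log2 fold change of -0.76 ± 0.22 (edgeR adjusted p = 0.0374, from 0.0074 to 0.119 over the alternatives), and the call was lost in 7 of the 17, among them those without colon 4, colon 20, tumor 2 or tumor 20. The 12 macrophage and monocyte genes summed to between 306 and 465 CPM in colon and between 503 and 543 in tumor. Of these 12 genes 4 rose (33.3%) and 1 fell (8.33%), beside 16.1% each of all genes, with a median log2 value of 0.41. The 7 dendritic cell genes summed to between 26.2 and 28.7 CPM in colon and between 34.7 and 55.7 in tumor, but Itgax, the 1 gene of the list that rose, carried that difference. Without Itgax the sum was 12.3, 16.5 and 12.4 CPM in colon and 8.40, 13.3 and 8.03 in tumor, with overlapping ranges. Itgax was left out after its values were seen, so the lower remainder followed in part from that choice. The full list had a median log2 value of -0.54, with 5 genes negative and 2 positive. In it 1 gene rose (14.3%) and 0 fell, beside 16.1% each of all genes. In 3 of the 7 genes (Flt3, Cd209a and Zbtb46) every tumor lay below every colon library, beside 24.2% of all genes. Cd209a had at most 28 counts in any library. The 7 B cell genes had a median log2 value of -2.48, with 7 negative and 3 called lower (42.9%, beside 16.1% of all genes). With 1 library left out the number called lower was from 0 to 7. The part of these cell types in the level of Irf8 was not tested.

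Irf1, which drives much of the interferon gamma response, had CPM of 119, 161 and 131 in colon and 79.2, 116 and 91.0 in tumor. Every tumor value was below every colon value, and the pair differences were alike, at -0.59, -0.48 and -0.53 on the log2 scale. Irf1 passed with the block (log2 -0.53 ± 0.09, adjusted p = 0.0136, from 0.0136 to 0.179 over the alternatives) and not without it (adjusted p = 0.056). An unstranded count could include reads of the antisense gene Gm17334, which overlaps Irf1 by 3144 bases. Gm17334 had 4311 counts beside 12989 for Irf1, so the value of Irf1 is uncertain where strand was not used. Irf7, which amplifies the production of type I interferon, had CPM of 79.4, 157 and 189 in colon and 21.9, 98.9 and 52.3 in tumor. Tumor 4 lay above colon 2, and Irf7 passed with the block (log2 -1.46 ± 0.27, adjusted p = 0.0187, from 0.0187 to 0.257 over the alternatives) but not without it (-1.30 ± 0.54, adjusted p = 0.107).

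Irf9 and Stat2 are parts of the complex that binds the ISRE, and neither passed the test. Irf9 had a log2 value of 0.06 ± 0.20 and the narrowest spread among tumors of any member, 63.9 to 72.2 CPM. Stat2 had CPM of 62.5, 80.6 and 130 in colon and 48.6, 74.2 and 49.5 in tumor, with a log2 value of -0.66 ± 0.29 (adjusted p = 0.125). Its ranges overlapped, and colon 20 was the highest library.

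The oligoadenylate synthetases and their relatives had the most negative fold changes of any role group, with a median log2 value of -1.56, and 0 of the 5 passed the test. The synthetases make the short adenylate chains that activate RNase L. Oas1a had CPM of 46.0, 83.3 and 128 in colon and 14.5, 53.2 and 32.5 in tumor (log2 -1.36 ± 0.51, adjusted p = 0.0825). Oas2 had CPM of 11.5, 37.0 and 106 in colon and 5.67, 24.5 and 9.47 in tumor (log2 -1.96 ± 0.83, adjusted p = 0.114). The large fold changes came with large errors, because colon 20 was 9.24-fold above colon 2 for Oas2. Oasl2, an OAS-like protein that retains enzyme activity in the mouse, had CPM of 50.4, 103 and 226 in colon and 16.6, 69.3 and 32.3 in tumor (log2 -1.68 ± 0.65, adjusted p = 0.0895). With the block, Oas1a (adjusted p = 0.0207, from 0.0121 to 0.235 over the alternatives) and Oasl2 (adjusted p = 0.0449, from 0.0363 to 0.283) fell. Oas3 and Oasl1 had log2 values of -1.56 ± 0.75 and -0.69 ± 0.40. Tumor was lower than the colon sample of the same number in each pair for all 5 genes of the group. The main transcript of Oas1a is matched over its whole length by Oas1g at 95% identity or more, so reads of the pair cannot be fully separated. Their summed CPM was 68.7, 124 and 185 in colon and 20.1, 75.4 and 41.5 in tumor, a log2 ratio of means of -1.46.

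The Mx, Bst2 and Ifi genes had a median log2 value of -0.94, and Ifi27 alone passed the test. Ifi44 had CPM of 2.94, 13.2 and 32.3 in colon and 2.54, 8.44 and 4.82 in tumor (log2 -1.61 ± 0.80, adjusted p = 0.167), and its 11.0-fold range within colon was the widest of the 33 members. Mx1, a GTPase that traps incoming viruses, had CPM of 6.16, 20.1 and 32.3 in colon and 4.06, 13.2 and 5.26 in tumor (log2 -1.38 ± 0.65, adjusted p = 0.149). Common laboratory strains are known to carry defective Mx alleles, and the deposited table lists Mx1 and Mx2 as polymorphic pseudogenes. Mx2 lay between 2.40 and 7.74 CPM in colon and between 1.33 and 4.91 in tumor. Of its transcript 34.0% is matched in Mx1 at 95% identity or more. Bst2, the tetherin that holds budding virions at the cell surface, lay between 18.3 and 57.0 CPM in colon and between 20.1 and 31.5 in tumor. Its log2 value was -0.61 ± 0.39, and that of Ifi35 was -0.58 ± 0.30. The antisense gene Gm11626 overlaps Ifi35 by 815 bases and had 1288 counts beside 3325 for Ifi35, so the value of Ifi35 is uncertain where strand was not used.

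The IFIT, Isg15 and viperin group had a median log2 value of -0.32, the closest to 0 of the 6 role groups, and held 3 of the 4 members with a positive fold change. Isg15 (chr4:156283912-156285253), a ubiquitin-like protein joined to other proteins after interferon exposure, had CPM of 5.07, 30.9 and 53.4 in colon and 7.23, 17.3 and 9.31 in tumor. All 3 tumors lay within the colon range, and the log2 value was -1.40 ± 0.74 (adjusted p = 0.192, from 0.02 to 0.548 over the alternatives). Another gene, AC151275.1, matches 63.8% of the Isg15 transcript at 95% identity or more, so reads of both could be mixed. Usp18, the protease that removes Isg15 and dampens the type I receptor, had CPM of 3.76, 13.4 and 27.6 in colon and 17.2, 36.8 and 21.4 in tumor (log2 0.76 ± 0.63, adjusted p = 0.398). Usp18 and Isg15 thus had fold changes of opposite sign, with neither past the threshold. An antisense gene, Gm44148, overlaps Usp18 by 15715 bases and had 360 counts beside 2331 for Usp18.

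Ifit1, whose product binds foreign RNA and blocks its translation, had CPM of 12.5, 38.9 and 57.2 in colon and 8.45, 40.2 and 22.5 in tumor (log2 -0.61 ± 0.65, adjusted p = 0.513). Ifit2 differed in sign, with CPM of 5.89, 22.9 and 25.4 in colon and 15.0, 48.4 and 15.9 in tumor (log2 0.55 ± 0.63, adjusted p = 0.54). In both, the lowest colon library was colon 2 and the highest tumor library was tumor 4. Ifit3 and Ifit3b are near copies, with 97.4% of the Ifit3 transcript matched in Ifit3b at 95% identity or more, and their summed CPM was 7.74, 11.0 and 28.5 in colon and 6.69, 18.5 and 16.3 in tumor. Rsad2, the antiviral enzyme viperin, lay between 3.71 and 17.8 CPM in colon and between 8.55 and 10.5 in tumor, so the tumors fell inside the colon range.

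The GBP and IRG GTPases, which coat and break the vacuoles of intracellular microbes, are mainly targets of interferon gamma and had a median log2 value of -0.63 with 0 of 7 past the threshold. Gbp7 had CPM of 18.2, 16.6 and 23.2 in colon and 7.82, 16.0 and 12.7 in tumor. Its groups did not overlap, by a margin between tumor 4 and colon 4 that was small beside either range (log2 -0.66 ± 0.28, adjusted p = 0.112). Irgm1, which keeps effector GTPases off the host's own membranes, had CPM of 34.9, 59.6 and 89.3 in colon and 23.3, 45.3 and 40.6 in tumor. It fell with the block (log2 -0.71 ± 0.17, adjusted p = 0.0359, from 0.0359 to 0.468 over the alternatives) and not without it (adjusted p = 0.164). Igtp, a regulator of the same kind, had CPM of 12.4, 24.9 and 35.2 in colon and 6.99, 19.8 and 14.5 in tumor and passed only with the block (adjusted p = 0.0493, up to 0.552 over the alternatives). Igtp and Irgm2 share 7974 bases on the same strand, and Irgm2, at 37.7 to 83.9 CPM in colon and 30.3 to 76.3 in tumor, had a log2 value of -0.12 ± 0.39. Gbp2, Gbp3 and Gbp5 had log2 values of -0.63, -0.56 and -0.34.

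Per exon length, the members differed widely in level. The highest mean levels in colon were 43.3 FPKM (fragments scaled to exon length and to the library total) for Oas1a, 40.2 for Isg15 and 39.6 for Bst2, and the lowest was 0.968 for Gbp5. In tumor the highest was 28.3 FPKM for Bst2 and the lowest 0.818 for Mx2.

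Within each tissue the members moved together from library to library. Colon 20 was the highest of the colon libraries for 31 of 33 members (93.9%, beside 33.8% of all genes) and colon 2 the lowest for 29 (87.9%, beside 37.6%). Among tumors, tumor 4 was the highest for 30 (90.9%, beside 33.3%) and tumor 2 the lowest for 30 (90.9%, beside 38.9%). The median CPM of the members was 17.9, 33.2 and 57.0 in colon 2, 4 and 20 and 12.6, 29.0 and 22.0 in tumor 2, 4 and 20. Tumor 4 and tumor 20 thus lay between colon 2 and colon 4, and tumor 2 lay lowest of the 6. Over all genes tested the same median stayed between 17.3 and 18.0.

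The ratio of the highest to the lowest library within colon had a median of 2.74 over the members and 1.34 over all genes, and it was above 2 for 25 members (75.8%, beside 18.1%). Within tumor the median was 2.40, beside 1.37, with 24 members above 2 (72.7%, beside 20.9%). Over the 13891 genes with a mean CPM at least that of the lowest member, these medians were 1.26 in colon and 1.29 in tumor. Members with the widest ratio in colon were Ifi44 (11.0), Isg15 (10.5), Oas2 (9.24), Oas3 (8.25) and Usp18 (7.33), all known as type I interferon targets, and in tumor it was Ifit3b (13.0). Ifih1, Irf1, Gbp7, Ifi27 and Irf8 had the narrowest ratios in colon, from 1.27 to 1.43. These are the 5 genes whose groups did not overlap.

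**Figure D4:**
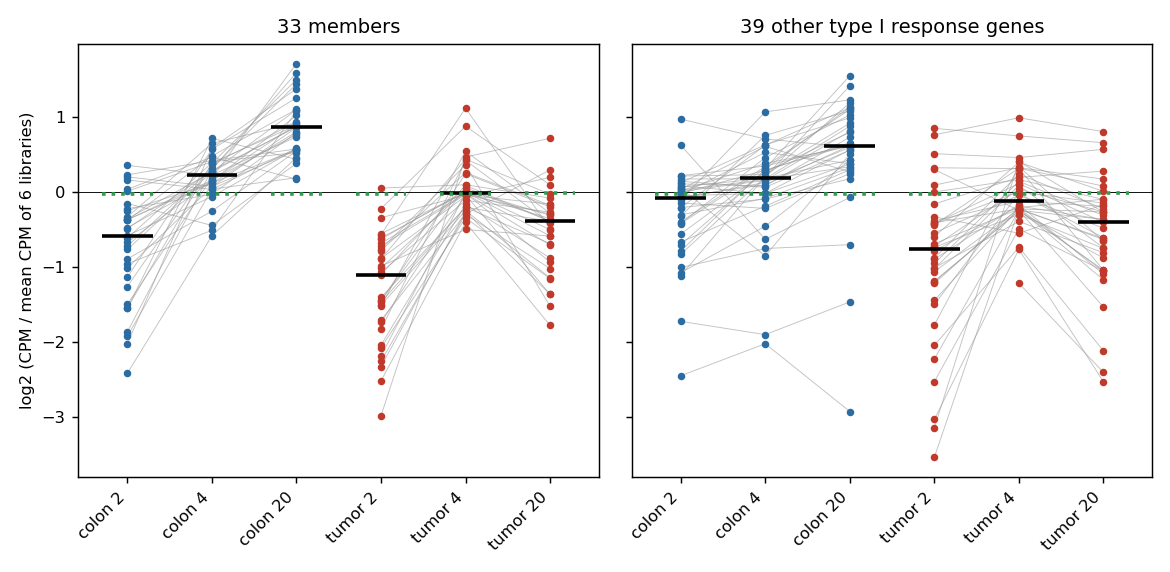
log2 ratio of CPM in each library to the mean of the 6 libraries, for the 33 members and for 39 other type I response genes, with grey lines joining the values of a gene within a tissue, black bars giving list medians and green dotted bars the median over all genes tested. Colon 20 has the highest median (0.86 for the members) and tumor 2 the lowest (-1.10); Oas1h, listed at 0 in tumor 2, has no point there.

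The same order of libraries appeared in lists of other interferon targets. Of 39 other type I response genes that were tested, 34 were highest in colon 20 and 32 in tumor 4, and of 12 other interferon gamma response genes 10 were highest in colon 20 and 8 in tumor 4. Among the 9 receptors and Janus kinases, 0 were highest in colon 20, and among the 10 negative regulators 0 were. Markers of cell types also differed between libraries. The 5 leukocyte genes summed to 152, 181 and 118 CPM in colon 2, 4 and 20, so they were lowest in the colon library where the members were highest, and to 182, 209 and 167 in tumor 2, 4 and 20. The 9 T and NK cell genes summed to 11.3, 20.1 and 13.1 CPM in colon and 6.89, 20.2 and 8.20 in tumor, and the 7 B cell genes to 82.3, 98.4 and 33.8 in colon and 4.89, 33.4 and 7.98 in tumor. Among tumors both were highest in tumor 4 and lowest in tumor 2, as the members were. Siglech, a marker of plasmacytoid dendritic cells, had 18, 18 and 2 counts in colon and 3, 18 and 21 in tumor. Pacsin1, another of the 5 genes of that list, had 8.61, 22.3 and 45.1 CPM in colon and 1.71, 5.59 and 3.49 in tumor, the library order of the members, and fell (log2 -2.81 ± 0.66, edgeR adjusted p = 0.0176). Spib, also in B cells, fell too (log2 -2.40 ± 0.53, adjusted p = 0.0142), with 13.8 to 15.6 CPM in colon and 1.37 to 5.41 in tumor. Cox6a2 had at most 5 counts in any library, and the summed level of the list (1104 to 1140 CPM in colon, 71.3 to 168 in tumor) was nearly all Klk1, at 1066 to 1114 CPM in colon, which fell as well. Of the 4 genes tested 3 thus fell (75%, beside 16.1% of all genes), and Siglech did not pass (log2 -0.04 ± 0.90, edgeR adjusted p = 0.976). Siglech had 0.11 to 1.11 CPM in colon, far below Klk1, so the list cannot be read as a level of plasmacytoid dendritic cells. Whether Klk1, Pacsin1 and Spib came from such cells was not tested. The 9 mature colonocyte genes summed to 12282, 9786 and 7164 CPM in colon and 1388, 2948 and 2854 in tumor. Muc3 carried most of these sums, at 10400, 6546 and 4891 CPM in colon and 1036, 1672 and 2125 in tumor. Colon 2 was the lowest colon library for Car1, Slc26a3, Aqp8, Guca2a, Guca2b and Krt20, and colon 20 for Muc3, Car4 and Saa1. Among tumors, tumor 4 was the highest for every gene of the list but Muc3. The part of these cell types in the members' values was not tested.

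The interferon genes that could be looked up were close to absent at this depth. Of 21 ligand genes listed, 5 were in the table and 0 passed the filter. The others were not analysed here, so their levels are not known. Ifnb1 had 0 counts in all 6 libraries, which allows up to 0.0544 CPM over the 3 colon libraries and 0.0518 over the 3 tumor libraries (3 counts in each, counting error only). Ifng had 1 count, in colon 4, Ifnk had 2, in tumor 2, and Ifnz had at most 2 in any library. Ifne, an interferon known from epithelia of the reproductive tract, had 0 counts in each colon library and 19, 2 and 3 in tumor 2, 4 and 20, so it was seen most in the tumor where the members were lowest.

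Of 9 receptor and Janus kinase genes 3 rose (33.3%, beside 16.1% of all genes) and 0 fell (beside 16.1%), with a median log2 value of 0.32. Ifnar1, a chain of the type I receptor, had CPM of 55.6, 56.9 and 56.8 in colon and 121, 96.7 and 96.2 in tumor (log2 0.89 ± 0.12, edgeR adjusted p = 0.00233). Ifnar2, its partner, rose by 0.95 ± 0.20 (adjusted p = 0.0126), and Ifngr2 by 0.66 ± 0.13 (adjusted p = 0.0107). All 3 had tumor values above every colon value and were called under all 17 alternatives. Ifngr1, the ligand-binding chain of the interferon gamma receptor, had a log2 value of -0.55 ± 0.23 (adjusted p = 0.107).

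Of 11 other IRF and STAT factors 2 rose (18.2%, beside 16.1% of all genes) and 0 fell (beside 16.1%). Their median log2 value was -0.00, with values from -1.31 to 0.85. Stat3, which carries interleukin signals, rose by 0.73 ± 0.20 (edgeR adjusted p = 0.0307, from 0.00459 to 0.0997 over the alternatives). Its CPM was 267, 183 and 159 in colon and 349, 294 and 367 in tumor, with no overlap. Irf3 and Stat6 had log2 values of -0.00 ± 0.09 and 0.12 ± 0.11.

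Sting1, the adaptor of cytosolic DNA sensing, was the only 1 of 12 other sensor and adaptor genes to rise, from 30.7, 16.0 and 16.3 CPM in colon to 196, 121 and 140 in tumor (log2 2.86 ± 0.31, edgeR adjusted p = 0.00108). Of the same 12 genes 3 fell (25.0%, beside 16.1% of all genes), and the median log2 value of the list was -0.04, with 7 negative and 5 positive. Mavs, the adaptor through which Ifih1 signals, had a log2 value of -0.78 ± 0.13 (adjusted p = 0.00456), Tlr3, an endosomal sensor of double-stranded RNA, -0.79 ± 0.20 (adjusted p = 0.0248), and Trim25, a ubiquitin ligase of the RIG-I pathway, -0.49 ± 0.15 (adjusted p = 0.0463). Without colon 20, tumor 2 or tumor 20 the number that fell was 1, and without colon 4 or tumor 4 it was 2.

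Other type I response genes, a list of 40 with 39 tested, had 11 lower (28.2%, beside 16.1% of all genes) and 3 higher (7.69%, beside 16.1%), and a median log2 value of -0.71 beside -0.66 for the members. The 3 that rose were Ifitm1, Ifitm2 and Ifitm3, membrane proteins that block virus entry, with log2 values of 3.28 ± 0.23, 1.33 ± 0.12 and 2.44 ± 0.14 (adjusted p = 0.000285, 0.000489 and 0.000167). Ifitm3 had CPM of 96.8, 85.6 and 116 in colon and 575, 537 and 504 in tumor, and the 3 genes were higher in tumor in each pair. None of them was highest both in colon 20 among colon libraries and in tumor 4 among tumors. Samhd1, which depletes deoxynucleotides, fell, with a log2 value of -0.75 ± 0.20 (adjusted p = 0.0267). Without colon 4, colon 20, tumor 2 or tumor 20 the number that fell was 3, 2, 4 and 1.

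Of 12 other interferon gamma response genes 1 rose, Gbp9, by 0.89 ± 0.21 (adjusted p = 0.0187), and 0 fell (8.33% and 0%, beside 16.1% each of all genes). This guanylate-binding protein had 11.3, 16.1 and 19.1 CPM in colon and 28.0, 32.5 and 25.9 in tumor, whereas Gbp4 had a log2 value of 0.01 ± 0.36. The values of Ifi47 and of Nlrc5, the activator of class I antigen presentation genes, were -0.43 ± 0.48 and -0.83 ± 0.44. Of 10 negative regulators of the pathway 2 rose (20%, beside 16.1%). Socs3, a feedback inhibitor of cytokine receptors, went from 38.2, 18.6 and 13.8 CPM in colon to 137, 80.8 and 153 in tumor (log2 2.39 ± 0.41, adjusted p = 0.00576), and Ptpn1, a phosphatase that acts on Janus kinases, rose by 0.51 ± 0.15 (adjusted p = 0.0349). Ptpn6 and Ptpn11 had log2 values of 0.26 ± 0.11 and 0.13 ± 0.12.

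**Figure D5:**
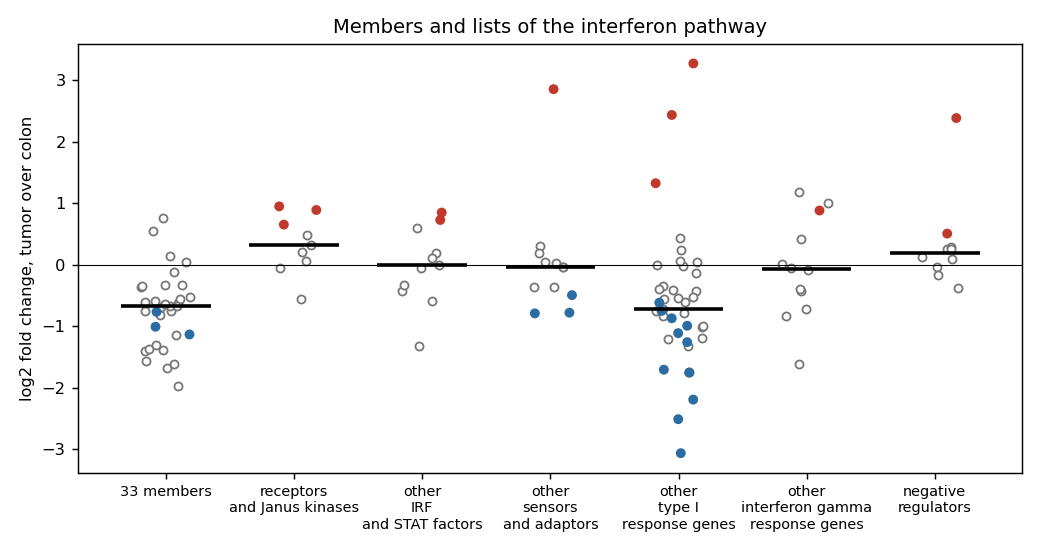
log2 fold change, tumor over colon, of the 33 members and of each tested gene in the other lists of the interferon pathway, with bars at the medians. Filled points have an adjusted p below 0.05 (red higher, blue lower): 3 of the 9 receptors and kinases rose, while 11 of the 39 other type I response genes fell and the 3 Ifitm genes rose.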

How the data were processed

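The authors deposited 1 table that gives, for every gene and library, a raw fragment count and an FPKM value, in which the authors divided that count by exon length and library total. Per the labels a stranded mRNA kit was used, and the submitters' notes name cutadapt, HISAT and GRCm39. Their versions, how fragments were counted and whether strand was used are not stated in the sources used. Groups follow the sample titles.

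The 18520 genes that passed filterByExpr (minimum count 10) were tested with the quasi-likelihood test of edgeR 4.0.16 under R 4.3.3 after TMM scaling, and p-values were adjusted over all of them by Benjamini-Hochberg (threshold 0.05). CPM used TMM library sizes. SEs are approximate, being the log2 value over the square root of F. No block was used in the main test because the study compared unpaired groups. The check of the pairing gave correlations of deviations from group means of 0.19 (number 2), 0.12 (number 4) and 0.02 (number 20), and tumor 4 correlated as well with colon 20 (0.12). Promoter letters came from RefSeq, and near copies were sought with BLAST 2.17.0 in GENCODE transcripts at 95% identity or more. The scripts were tested on simulated data.

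The members and lists were chosen with earlier results of these data known. All members were named, and of each pathway list the 4 genes of highest mean CPM among those past the threshold, filled up to 4 with others tested, with the ligands. Some genes are not reported here. Features singled out by library order were chosen after their values were seen. Alternatives were RLE, upper quartile and epithelial scaling, 2 other filters, DESeq2 1.42.0, limma 3.58.1 on counts and on FPKM, the block, leaving out the 5 genes over 1% of a library, and each library left out.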

Additional observations from a re-analysis of the deposited data

How the results depend on the processing

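Over 17 alternatives and 33 members, 561 fold changes were recomputed: 519 kept their side of the threshold, of which 18 changed sign without a call, 29 passed it anew, 13 no longer passed it and 0 reversed a call. The number of members higher in tumor was 0 under every alternative. The number lower was 7 with no filter, 7 in DESeq2, 1 in limma on log2(FPKM + 1), 1 on log2(FPKM + 0.1) and 10 with the replicate block, and from 1 to 12 with 1 library left out, beside 3. It was 2 with epithelial scaling and 3 under the other alternatives. Of the 18520 genes of the main test, 2987 were lower there, 3513 in DESeq2 and 2914 with no filter. The block gave 2833 such genes, and the FPKM scale with 1 added gave 2350. The larger number of members in DESeq2 thus came with more calls over all genes, which was not so with no filter or the block. With FPKM + 0.1 the median of all genes moved from 0.01 to 0.12, and 3911 genes were higher and 2408 lower. The number of all genes called, 5968, was 3809 to 5838 with a library left out. Of the 39 other type I response genes 7 were lower on the FPKM scale, 13 with the block, and from 1 to 16 with a library left out, beside 11. The cause of these moves was not tested. The block changed no call of a named gene of the pathway lists. With 3 libraries per tissue, and members that often varied more than 2-fold within a tissue, small differences could not be resolved.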

Other observations

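Some interferon targets outside the members had too few counts to be tested and are given as counts in colon 2, 4 and 20 and then tumor 2, 4 and 20. Gbp2b had 3, 29 and 45 and then 0, 7 and 4, and Gbp11 had 0, 3 and 4 and then 1, 9 and 1. Gbp10 had 0, 5 and 9 and then 2, 14 and 30, and was the only 1 of these 3 whose highest library was tumor 20. Oas1h, a relative of Oas1a that was tested, had 20, 40 and 50 and then 0, 11 and 4, and Ifit1bl2, a relative of Ifit1, had 115, 85 and 88 and then 8, 41 and 10. Both fell in edgeR, with adjusted p of 0.0336 and 0.0157. Tumor 2 was the lowest library for Gbp2b, Oas1h and Ifit1bl2. These genes were chosen after their values were seen.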
